A study of Homo sapiens with 48 samples.

Results

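The NR4A receptors are 3 nuclear receptors, NR4A1 (Nur77), NR4A2 (Nurr1) and NR4A3 (NOR1), and their mRNA levels are described here in HEK293 cells stimulated with angiotensin II (AII) and epidermal growth factor (EGF), singly or jointly. The members were the 3 rows of the count table that carry these gene names, out of 60610 listed genes, of which 44295 had a count and 19626 passed the filter on low counts. All 3 members passed that filter.

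NR4A receptors are called orphan receptors because no natural ligand is firmly established for them, and their activity is set mainly by how much protein is made. Their genes are classic immediate-early genes, switched on without new protein synthesis by calcium, cyclic AMP and growth factor signals through CREB, MEF2 and SRF bound near their start sites. The proteins bind the NBRE element as monomers, and NR4A1 and NR4A2, but not NR4A3, also bind DNA together with the retinoid X receptors. In the zona glomerulosa of the adrenal gland AII induces NR4A genes ahead of CYP11B2, the aldosterone synthase gene.

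HEK293 is a human embryonic kidney line, and all libraries came from 1 clone that stably expresses the AII receptor AT1R and was selected with puromycin in the presence of the AT1R blocker losartan. The 8 groups combine 2 incubation times in serum-free medium, 6 h and 24 h, and 4 treatments: AII at 1 nM, EGF at 10 µg/L, the pair of agents together (AII + EGF) and none (control). Poly(A) RNA was sequenced and fragments were counted per gene. The labels give 6 libraries to each group, and nothing in them says whether these came from separate cultures, so p-values measure the spread between libraries, which may be technical.

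Of the 48 libraries, 38 were used. Among all 1128 pairs of libraries, 4 pairs were closer than sampling noise allows for separate libraries, with a chi-square per degree of freedom of 0.397 to 0.505, and 3 of the 4 pairs join libraries labelled as different groups. These 8 libraries were left out, together with AII 6 h replicate 6 and AII + EGF 6 h replicate 6, whose expression went against their labels. On a scale from 0 (mean of the other AII 6 h libraries) to 1 (mean of the other AII + EGF 6 h libraries), over 1489 genes, they lay at 0.855 and -0.00559. This scale is the contrast between AII and AII + EGF at 6 h itself. Leaving out these 2 libraries by it can widen that contrast in the tests below and narrow its spread. The libraries used were 4 control, 5 AII, 3 EGF and 4 AII + EGF libraries at 6 h, and 6, 5, 5 and 6 at 24 h. Each held 17.8 to 29.96 M counts (median 21.7 M). Among those used, AII 6 h replicates 1 and 2 (chi-square per degree of freedom 2.02) and EGF 6 h replicates 3 and 4 (3.32) were also close. The median within groups was 48.3. These libraries were counted as separate, so the spread within AII 6 h and EGF 6 h may be understated. Of the marker genes of the line, NEFL (545 to 1721 CPM) and NEFM (2585 to 9353 CPM) were abundant, PAX2 was low (0.264 to 3.66 CPM) and DLK1 had no count in 31 of the 38 libraries. PTPRC, CD3E, PECAM1, CDH5 and COL1A2, markers of leukocytes, endothelium and fibroblasts, reached at most 0.382 CPM. DCN, MYH11 and DES, markers of fibroblasts and smooth muscle, reached at most 0.992, 2.27 and 2.00 CPM. CPM (counts scaled to library size) is given throughout after scaling with TMM factors.

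The receptor transgene was itself not constant. AGTR1, which encodes AT1R, stood at 4267 ± 239 CPM in control 6 h (SD, n = 4) and at 10033 ± 436 CPM under AII + EGF 6 h (SD, n = 4), a log2 change of 1.23 ± 0.17 (SE, edgeR adjusted p = 4.9e-07). Its log2 change was 0.48 under AII and 0.28 under EGF at 6 h, where it was not called, and 0.83 under AII + EGF at 24 h, where it was called. The part of this change in the NR4A values below was not tested.

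The members lie on 3 chromosomes of GRCh38. NR4A1 spans chr12:52022832-52059503 on the plus strand, NR4A2 spans chr2:156324437-156332721 on the minus strand and NR4A3 spans chr9:99821885-99866891 on the plus strand, and all are protein-coding. RefSeq (GRCh38.p14) promoter windows were at hand for NR4A3 and for 2 annotated starts of NR4A1, and none for NR4A2. The 250 bases before the NR4A3 start, chr9:99821635-99821884 on the plus strand, are shown because NR4A3 had the highest fold change of the family and because the short form of the cyclic AMP response element (CRE), the element bound by CREB, recurs in them. Capitals mark each short site, TGACG or its reverse complement CGTCA.

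NR4A3 promoter: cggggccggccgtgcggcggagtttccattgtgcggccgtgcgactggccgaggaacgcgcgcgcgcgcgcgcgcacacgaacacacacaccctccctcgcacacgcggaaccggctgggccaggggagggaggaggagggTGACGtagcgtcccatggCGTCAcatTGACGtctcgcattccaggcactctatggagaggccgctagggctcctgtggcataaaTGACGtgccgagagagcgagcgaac

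The 4 short sites begin 109, 91, 83 and 25 bases before the start. Searched on both strands, at least 1 short site was found in 21.2% of 35116 promoter windows of this length, and 4 or more in 0.236%. Neither of the 2 NR4A1 windows, which end at 52022831 and 52037714 on chromosome 12, held one, and other starts of that gene were not looked at. The full element TGACGTCA (1.65% of windows), the NBRE AAAGGTCA (1.05%), TATAAA (10.7%) and the CArG box of SRF (1.16%) were not found in any of the 3 member windows. A full element would also hold a short site on each strand. These are matches of letters only, and nothing was measured at these sites. The cut at 4 was taken from the NR4A3 window itself, and windows were not matched for GC content (68% there). The 0.236% is therefore no test.

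The question of the design was how far the responses to AII and EGF add up when both receptors are active. All 3 NR4A mRNAs rose under AII + EGF at 6 h, to 3.33-fold of control for NR4A1, 1.98-fold for NR4A2 and 4.03-fold for NR4A3. Under AII alone at 6 h NR4A1 rose 1.65-fold and was the only member called, and under EGF alone none was. In bulk RNA, more cells expressing a gene and more RNA per cell cannot be told apart. By 24 h no member differed from control past the threshold under any stimulus. A gene was called where the edgeR adjusted p was under 0.01, the change at least 1.5-fold and the mean above 5 CPM in the group with the higher level.

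**Figure D1:**
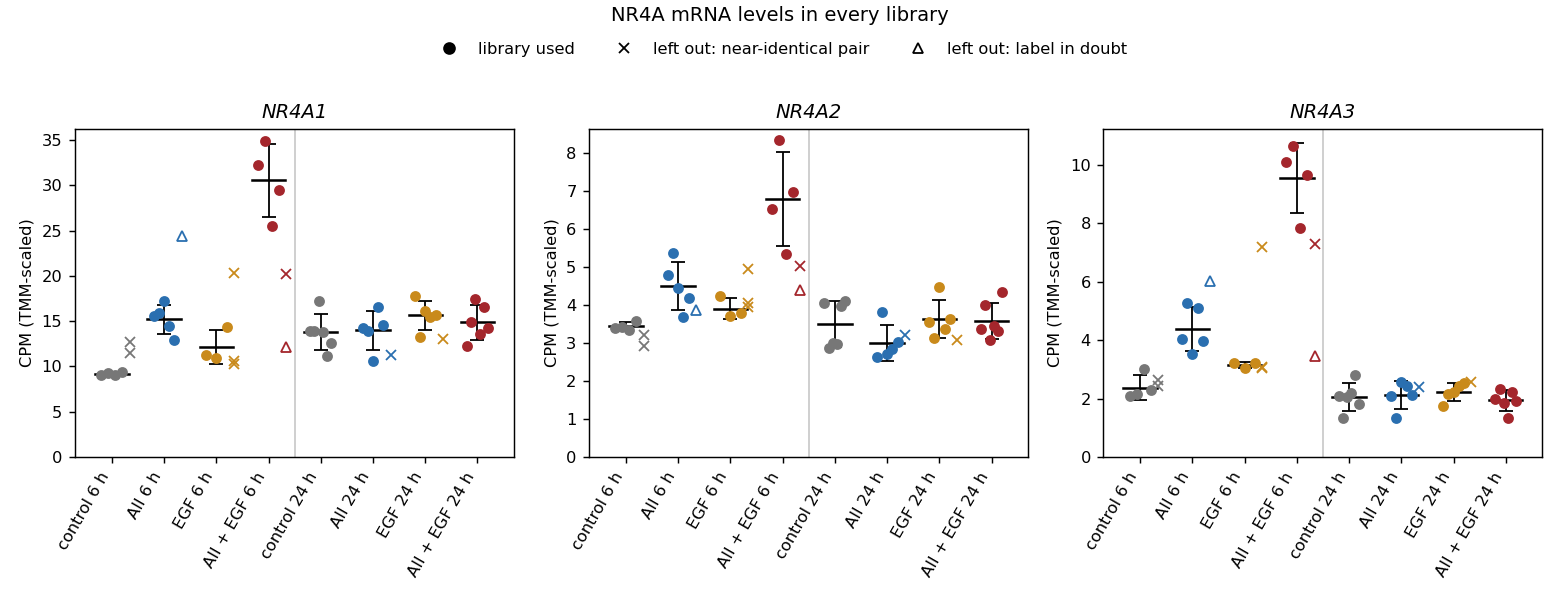
NR4A mRNA in every library, 1 panel per gene, with CPM on the vertical axis and the 8 groups on the horizontal axis. Filled circles are the 38 libraries used, black lines their mean and SD, crosses the libraries of near-identical pairs and triangles the 2 libraries whose labels are in doubt. The AII + EGF 6 h mean is highest in each panel, with 1 of its NR4A2 libraries just below the highest AII 6 h library, and the groups at 24 h overlap.

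NR4A1, the member that also acts at mitochondria, was at 9.04, 9.08, 9.24 and 9.37 CPM in the 4 control 6 h libraries. AII brought it to 12.9, 14.5, 15.5, 15.9 and 17.2 CPM. EGF gave 10.9, 11.3 and 14.3 CPM, and AII + EGF gave 25.6, 29.5, 32.3 and 34.9 CPM. Every stimulated library at 6 h thus lay above every control, AII and EGF overlapped each other, and AII + EGF lay above all others. The log2 change against control was 0.72 ± 0.13 under AII (SE, edgeR adjusted p = 6.05e-04), 0.40 ± 0.14 under EGF (adjusted p = 0.0909) and 1.73 ± 0.13 under AII + EGF (adjusted p = 5.98e-13).

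NR4A2, best known for its part in the formation of dopaminergic neurons, had the smallest log2 change of the family under each stimulus at 6 h. Control 6 h libraries held 3.33, 3.40, 3.42 and 3.59 CPM. Under AII the values were 3.68, 4.20, 4.44, 4.78 and 5.37 CPM, and under EGF they were 3.72, 3.78 and 4.23 CPM. AII + EGF libraries held 5.35, 6.53, 6.96 and 8.35 CPM. The lowest AII + EGF value was just under the highest AII value, so these 2 groups overlapped, while both lay above control. The gap between the highest control (3.59 CPM) and the lowest AII library (3.68 CPM) was small. The log2 change was 0.38 ± 0.15 under AII (edgeR adjusted p = 0.239), 0.18 ± 0.17 under EGF (adjusted p = 0.64) and 0.98 ± 0.16 under AII + EGF (adjusted p = 4.31e-06).

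NR4A3 had the lowest control level and the highest fold change. It stood at 2.07, 2.14, 2.28 and 3.01 CPM in control 6 h, at 3.54, 3.96, 4.05, 5.09 and 5.26 CPM under AII, and at 3.03, 3.20 and 3.23 CPM under EGF. AII + EGF gave 7.86, 9.65, 10.1 and 10.6 CPM. The 4 groups at 6 h did not overlap and followed the order control, EGF, AII and AII + EGF, although the highest control and the lowest EGF library nearly touched. The log2 change was 0.88 ± 0.18 under AII (edgeR adjusted p = 0.0041), 0.41 ± 0.21 under EGF (adjusted p = 0.291) and 2.01 ± 0.19 under AII + EGF (adjusted p = 8.06e-11). The AII change passed the adjusted p and the fold, but the mean of 4.38 CPM was below the minimum of 5 CPM, so it was not called.

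These counts have to be read against all genes tested. Under AII at 6 h 1 of 3 members was called higher, against 0.459% of all genes tested, and without the CPM minimum it was 2 of 3, against 0.617%. Under EGF at 6 h edgeR called 0 of 3, against 1.62% of genes called higher. At an unadjusted p under 0.05 it was 1 of 3 (NR4A1), against 17.8% of genes, and DESeq2 called 0. Under AII + EGF at 6 h all 3 were called higher, against 6.45% of genes. Groups without overlap, with every stimulated library above every control, were found for all 3 members in each of these comparisons, and for 4.89%, 13.2% and 17.4% of all genes under AII, EGF and AII + EGF. Among the 19626 genes ordered by log2 change under AII + EGF at 6 h, NR4A3 was at place 267, NR4A1 at 364 and NR4A2 at 1095. The comparisons share their control libraries, so their values are set side by side and were not correlated.

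**Figure D2:**
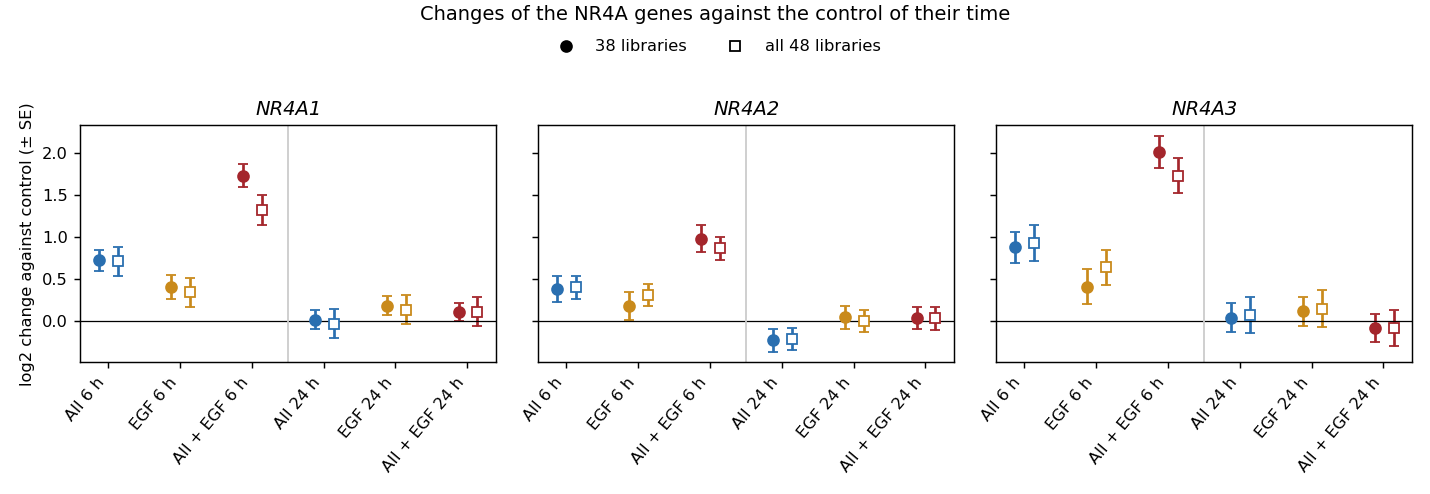
Log2 change against the control of the same time (vertical axis, ± SE) for each stimulus and time (horizontal axis), 1 panel per gene. Filled circles are the fits on 38 libraries and open squares those on all 48. AII + EGF 6 h stands highest for each gene, at 1.73, 0.98 and 2.01 with 38 libraries, and the changes at 24 h lie near 0.

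The libraries left out hold informative values. A near-identical pair made of EGF 6 h replicate 1 and, under AII + EGF 6 h, replicate 4 had 20.3 CPM each for NR4A1, and 7.18 and 7.31 CPM for NR4A3, between the EGF and the AII + EGF levels. AII 6 h replicate 6 had 24.4 CPM of NR4A1 and 6.02 CPM of NR4A3, above the other AII libraries, and AII + EGF 6 h replicate 6 had 12.1 and 3.45 CPM, below the other AII + EGF libraries. With all 48 libraries in the fit, AII + EGF at 6 h kept its call for all 3 members, at a log2 change of 1.32, 0.87 and 1.73. The AII call of NR4A1 was lost at 48 libraries (log2 change 0.71, adjusted p = 0.0145).

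The stimuli were also compared with each other at 6 h. AII + EGF exceeded EGF alone by 1.33 ± 0.14 for NR4A1, 0.80 ± 0.17 for NR4A2 and 1.598 ± 0.20 for NR4A3 on the log2 scale (SE, edgeR adjusted p = 3.49e-08, 0.00114 and 6.03e-07), and all 3 were called, against 1.62% of genes. It exceeded AII alone by 1.01 ± 0.12, 0.60 ± 0.15 and 1.13 ± 0.17 in the same order (adjusted p = 4.48e-08, 0.00181 and 2.64e-06), and all 3 were called, against 4.21% of genes. Every AII + EGF library lay above every EGF library for all 3 members (13.9% of genes) and above every AII library for NR4A1 and NR4A3 (14.5% of genes). The NR4A2 calls were the least secure. Against EGF the adjusted p rose to at most 0.0124 when EGF 6 h replicate 4 or 5 was left out, and against AII it rose to 0.0184 without AII + EGF 6 h replicate 2. At all 48 libraries NR4A3 alone kept its call against AII, and NR4A2 lost its call against EGF (edgeR adjusted p = 0.0138). With 40 libraries, the doubted labels kept, the NR4A2 value against EGF was 0.0359.

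EGF alone and AII alone were not told apart by the test. EGF minus AII was -0.32 ± 0.14 for NR4A1 (edgeR adjusted p = 0.254), -0.20 ± 0.16 for NR4A2 (adjusted p = 0.601) and -0.47 ± 0.19 for NR4A3 (adjusted p = 0.225) on the log2 scale. No member was called by edgeR or DESeq2, against 0.667% of genes called in either direction, and 2 of 3 had an unadjusted p under 0.05 (14.5% of genes). All 3 members had a higher mean under AII than under EGF.

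The interaction asks whether the joint change on the log2 scale exceeds the sum of the separate log2 changes. It was positive for each member, at 0.60 ± 0.19 for NR4A1, 0.41 ± 0.22 for NR4A2 and 0.72 ± 0.27 for NR4A3 (SE), and did not pass (edgeR adjusted p = 0.156, 0.566 and 0.283). Neither edgeR nor DESeq2 called a member, against 0.229% of genes called in either direction by edgeR, and NR4A1 and NR4A3 had an unadjusted p under 0.05 (0.00299 and 0.0116, against 9.76% of genes). With all 48 libraries the interaction was 0.27, 0.15 and 0.16 in the same order. In CPM, the joint level of NR4A1 was 30.6 where the separate changes added to control give 18.2, an excess of 12.4 ± 2.39 CPM (SE from the 4 group variances). The excess was 1.83 ± 0.70 CPM for NR4A2 (6.80 measured, 4.96 added) and 4.40 ± 0.73 CPM for NR4A3 (9.56 measured, 5.16 added). The size of this excess depended on the libraries: with all 48 it was 6.06 ± 4.12, 0.883 ± 0.661 and 2.09 ± 1.32 CPM. At 24 h the excess was -1.01 ± 1.65, 0.46 ± 0.44 and -0.35 ± 0.35 CPM, each within or close to its SE of 0.

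**Figure D3:**
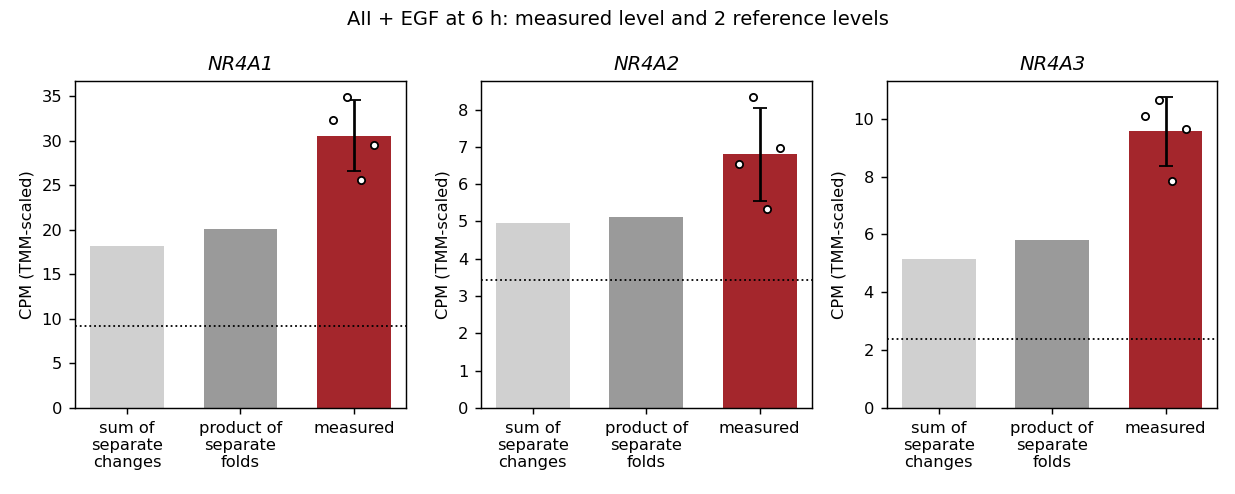
Levels under AII + EGF at 6 h in CPM (vertical axis), 1 panel per gene. The light bar is control plus both separate changes, the dark grey bar is control times both separate folds, and the red bar is the measured mean with its SD and the 4 libraries as circles, the dotted line being control. All 4 libraries of each gene lie above both reference bars.

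The titles of the libraries form runs that pass once through the treatments, and only runs 4 and 5 hold all 4 groups at 6 h among the 38 libraries, with 1 or 2 libraries a group. Nothing says that a run was a batch. Within them AII + EGF against control gave a log2 ratio of 1.48 and 1.70 for NR4A1, 0.65 and 1.06 for NR4A2 and 1.90 and 1.68 for NR4A3. AII gave 0.79 and 0.51 for NR4A1, 0.25 and 0.33 for NR4A2 and 1.03 and 0.39 for NR4A3. EGF gave 0.28 and 0.66, 0.22 and 0.18, and 0.57 and 0.09 in the same order of genes. AII was above EGF for NR4A1 in run 4 and below it in run 5, so the order of the separate stimuli differed between the runs for this gene.

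At 24 h the 3 mRNAs lay close together across treatments. NR4A1 ranged from 11.1 to 17.2 CPM in control (median 13.9), from 10.6 to 16.5 under AII, from 13.3 to 17.7 under EGF and from 12.3 to 17.5 under AII + EGF (median 14.6). NR4A2 ranged from 2.86 to 4.11 CPM in control and from 3.09 to 4.34 CPM under AII + EGF. NR4A3 ranged from 1.34 to 2.80 CPM in control and from 1.35 to 2.34 CPM under AII + EGF. For each gene the 4 groups overlapped. Against control, AII + EGF gave a log2 change of 0.11 ± 0.11 for NR4A1, 0.04 ± 0.13 for NR4A2 and -0.08 ± 0.16 for NR4A3. At this time edgeR and DESeq2 called 0 of 3 members under each stimulus and none reached an unadjusted p under 0.05. Of all genes, edgeR called 0%, 0.245% and 2.89% under AII, EGF and AII + EGF in either direction, and 1.75%, 14.7% and 32.1% had an unadjusted p under 0.05.

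The joint response therefore differed between the 2 times, and this difference was tested itself. The AII + EGF response at 24 h minus that at 6 h was -1.62 ± 0.17 for NR4A1, -0.95 ± 0.20 for NR4A2 and -2.09 ± 0.25 for NR4A3 (SE, edgeR adjusted p = 3.71e-09, 0.000503 and 4.83e-08). All 3 were called lower, against 6.08% of genes. For AII the difference was -0.70 ± 0.17, -0.61 ± 0.20 and -0.84 ± 0.25 and did not pass (adjusted p = 0.0488, 0.272 and 0.157), though all 3 had an unadjusted p under 0.05 (8.01% of genes). edgeR called 0.138% of genes in either direction there, and DESeq2 called no member. For EGF it was -0.22, -0.13 and -0.29, with 0 of 3 called by either tool, none at an unadjusted p under 0.05 (15.3% of genes), and 1.03% of genes called by edgeR.

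Unstimulated cells were compared across the times as well. NR4A1 was higher in control 24 h (11.1 to 17.2 CPM) than in control 6 h (9.04 to 9.37 CPM), and the groups did not overlap, as for 8.08% of genes. The log2 change was 0.58 ± 0.12 (edgeR adjusted p = 0.000454), just below the 0.585 that a fold of 1.5 requires, so it was not called, where 6.72% of genes were called in either direction. The other two members did not pass, at 0.03 ± 0.15 for NR4A2 and -0.21 ± 0.18 for NR4A3. In the 38 libraries the control level against which a change at 24 h was read was therefore higher for NR4A1 than at 6 h. The difference no longer passed with 48, 46 or 40 libraries (edgeR adjusted p = 0.0614, 0.0246 and 0.0171). Each title run lies within 1 time, so time and run cannot be told apart here.

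Ordered by mean, AII + EGF 6 h stood first for each gene, and for NR4A1 and NR4A3 none of its libraries overlapped the group next below. For NR4A1 the next groups were EGF 24 h, AII 6 h, AII + EGF 24 h, AII 24 h, control 24 h and EGF 6 h, each overlapping the one after it, and control 6 h came last without overlap. For NR4A2 every group overlapped its neighbour in the order. For NR4A3 AII 6 h and EGF 6 h followed without overlap, and control 6 h and the 4 groups at 24 h came last and overlapped. Per kilobase of exon, counted over all annotated exons of a gene, control 6 h levels were 1.26 CPM for NR4A1, 0.836 for NR4A2 and 0.376 for NR4A3, and AII + EGF 6 h levels were 4.19, 1.65 and 1.51. On this scale, which depends on the exon lengths used, the gap between NR4A2 and NR4A3 at control 6 h had largely closed under AII + EGF. In CPM NR4A3 was below NR4A2 in control 6 h (2.37 against 3.43) and above it under AII + EGF 6 h (9.56 against 6.80).

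Levels this low rest on few fragments. In the 38 libraries NR4A1 had 169 to 662 counts, NR4A2 had 55 to 156 and NR4A3 had 29 to 207. Counting error alone gives a coefficient of variation of 7.69%, 13.5% and 18.6% at the lowest of these counts. In control 6 h the SD was 0.154 CPM around 9.18 for NR4A1 and 0.110 around 3.43 for NR4A2, narrower than counting error. Lack of overlap with these controls, and the SE of the linear excess, rest in part on that narrow spread.

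Across the 38 libraries, Pearson's r of log2(CPM + 0.5) was 0.81 between NR4A2 and NR4A3, 0.67 between NR4A1 and NR4A2 and 0.67 between NR4A1 and NR4A3. The genes most like NR4A1 by the same measure were PKDCC (r = 0.869), IL4R (0.864), the alpha chain of the interleukin 4 receptor, and GAREM2 (0.845). Those most like NR4A2 were SGMS2 (0.854), a sphingomyelin synthase, RPS6KA3 (0.849), the kinase RSK2 that acts below ERK, and ATP13A3 (0.844). Those most like NR4A3 were TMED7, LRRC8B and CRY1, a repressor of the circadian clock (each 0.924). The members were not each other's nearest: NR4A3 was at place 22 in the order for NR4A2. The libraries share their treatments, so these values describe a common course and nothing more.

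Among the other nuclear receptors, 35 of 45 genes were tested, and under AII + EGF at 6 h 3 were called higher and 4 lower, against 6.45% and 5.53% of all genes, with a median log2 change of 0.08 against -0.03 over all genes. VDR, the vitamin D receptor, rose from 13.3 ± 2.52 to 28.5 ± 1.56 CPM (log2 change 1.10 ± 0.16, edgeR adjusted p = 1.45e-06). PGR, the progesterone receptor, rose from 7.79 ± 1.24 to 16.5 ± 1.83 CPM (log2 change 1.08). RARB, a retinoic acid receptor, fell by 1.24 on the log2 scale, from 18.8 to 7.96 CPM, and NR2F1 (COUP-TFI) fell by 1.08, from 39.9 to 18.8 CPM. The other 3 called genes, named after their values were seen, were HNF4G (0.69) and, lower, NR1D2 (-1.06) and RXRB. HNF4G lost its call with all 48 libraries. NR4A3 and NR4A1 had the 2 highest log2 changes of the 38 nuclear receptor genes tested, and NR4A2 came after VDR and PGR. At 24 h 2 of the 35 were called under AII + EGF, ESRRA (0.63) and VDR (0.62), both higher, against 2.89% of all genes in either direction, and DESeq2 called 3.

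**Figure D4:**
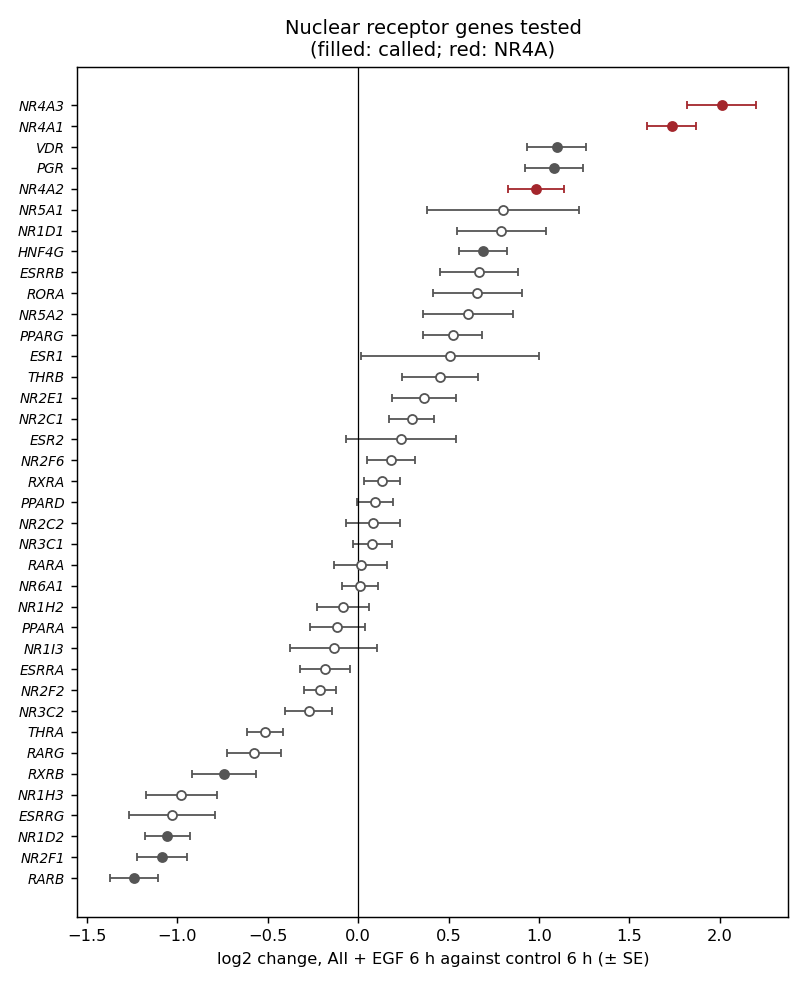
Log2 change (horizontal axis, ± SE) of each tested nuclear receptor gene under AII + EGF at 6 h against control, ordered by value, with NR4A genes in red and filled symbols for called genes. NR4A3 at 2.01 and NR4A1 at 1.73 stand at the top, NR4A2 at 0.98 comes after VDR and PGR, and RARB is lowest at -1.24.

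Of the dimerisation partners, RXRA was at 47.2 ± 2.33 CPM in control 6 h and 51.7 ± 4.32 CPM under AII + EGF (log2 change 0.13 ± 0.10, edgeR adjusted p = 0.346). RXRB fell by 0.74 on the log2 scale, from 36.03 ± 3.27 to 21.6 ± 3.41 CPM (SE 0.18, adjusted p = 0.00117), and lost its call with all 48 libraries (adjusted p = 0.012). Of the 7 partners and coregulators tested, edgeR called 3 at 6 h under AII + EGF, 1 higher and 2 lower, against 6.45% and 5.53% of all genes, and DESeq2 called 2. RCOR1, the corepressor CoREST, rose by 1.04, and PIAS4, a SUMO ligase, and RXRB fell. PIAS4 also lost its call with all 48 libraries. The median over this list was -0.07. At 24 h edgeR and DESeq2 called 0 of 7 under AII + EGF, against 2.89% of all genes called by edgeR in either direction. An unadjusted p under 0.05 was found for 1 of 7, against 32.1% of all genes.

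A list of genes for factors that act on NR4A promoters was described next. It holds CREB1, ATF1 and their CRTC coactivators, the MEF2 factors, SRF and ELK1, the class IIa histone deacetylases and CABIN1 that hold MEF2 in check, and the kinases MSK and PKD. Of its 20 genes tested, edgeR and DESeq2 called 0 under AII + EGF at 6 h, with a median log2 change of 0.09. Of all genes, edgeR called 6.45% higher and 5.53% lower there, so few calls among 20 would be usual. In the list 5 had an adjusted p under 0.01 at less than 1.5-fold or 5 CPM, a count without a share of all genes here. An unadjusted p under 0.05 was found for 9, against 41.5% of all genes. CREB1 was at -0.17 ± 0.15 and MEF2D at -0.09 ± 0.10. Neither was called, and both are named outside the naming rule given below, so they do not stand for the list as a whole. Under EGF at 6 h HDAC4, named after its value was seen, was the 1 gene called (0.69, edgeR adjusted p = 0.000426), against 1.62% of all genes called higher. Under AII at 6 h 0 of 20 were called by either tool, against 0.459% of all genes called higher by edgeR, and 6 had an unadjusted p under 0.05, against 12.1% of all genes.

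Early genes that respond to CREB were taken as a further list. The paper on these data counts EGR1 and cFOS as responsive to SRF, so the list does not tell CREB from SRF. Of 14 tested, 3 were called under EGF at 6 h, all higher, against 1.62% of genes: EGR1 rose from 6.23 ± 1.21 to 115 ± 5.78 CPM (log2 change 4.21), FOS from 2.12 to 7.33 CPM (1.78) and JUNB from 13.4 to 25.9 CPM (0.95). FOS lost this call with all 48 libraries (log2 change 1.07, adjusted p = 0.0344). Under AII alone edgeR and DESeq2 called 0 of 14, against 0.459% of genes called higher, and 2 had an unadjusted p under 0.05, against 12.1% of genes. The 3 NR4A genes had log2 changes of 0.38 to 0.88 under AII and 0.18 to 0.41 under EGF. The median of the 14 early genes was 0.13 under AII and 0.29 under EGF, against -0.01 over all genes in both.

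**Figure D5:**
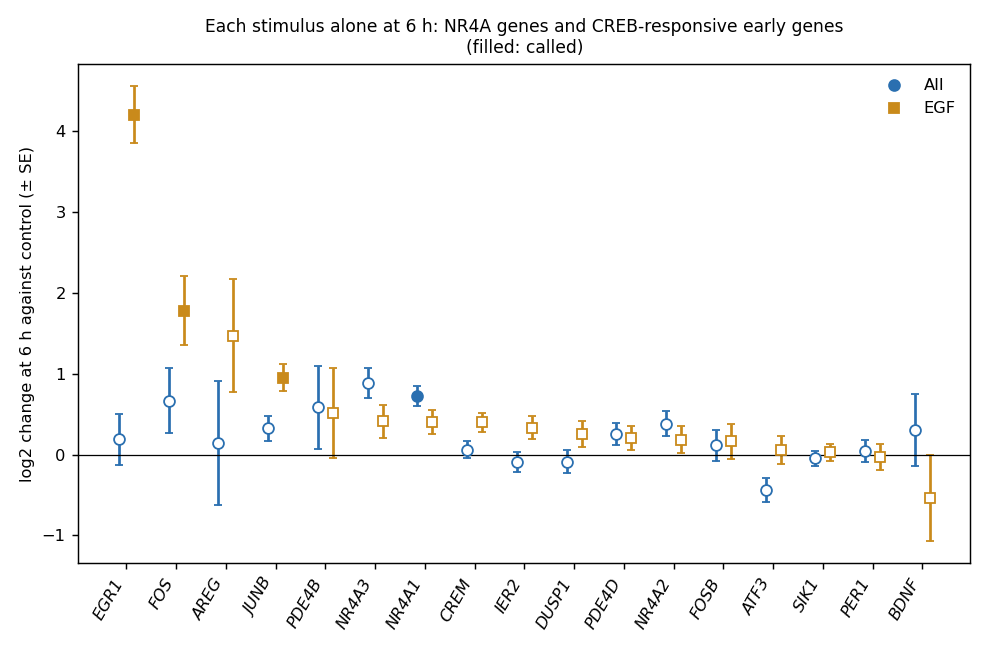
Log2 change at 6 h against control (vertical axis, ± SE) under AII (blue circles) and EGF (orange squares) for the 3 NR4A genes and the 14 early genes tested (horizontal axis), ordered by the EGF value. Filled symbols are called genes: EGR1, FOS and JUNB under EGF, and NR4A1 under AII.

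Under AII + EGF at 6 h 5 of the 14 early genes were called, all higher, against 6.45% of genes, with a median log2 change of 0.77. EGR1 reached 231 ± 41.1 CPM (5.22), FOS 12.98 ± 1.78 CPM (2.60), JUNB 66.3 ± 7.69 CPM (2.30) and DUSP1, a MAP kinase phosphatase, 41.3 ± 2.44 CPM (0.82). CREM, named after its value was seen, was also called (0.72). At 24 h EGR1 (1.602) and PER1 (0.68) were called higher under AII + EGF, 2 of 14. Of all genes, 2.89% were called in either direction, so 0 of 3 NR4A genes called is usual. With all 48 libraries DUSP1 at 6 h and EGR1 at 24 h (adjusted p = 0.0188) lost their calls.

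Genes reported as NR4A targets were described last, and not all could be tested. Of 10 steroidogenic genes 1 was tested, CYP11A1, the enzyme that starts steroid synthesis from cholesterol. It stood at 0.0114 ± 0.0228 CPM in control 6 h and 0.610 ± 0.207 CPM under AII + EGF 6 h (SD, n = 4 each), with at most 22 counts in a library. Under AII + EGF against control its edgeR adjusted p was under 0.01 at 6 h and at 24 h. Against EGF at 6 h its log2 change was 6.78 ± 1.18 (edgeR adjusted p = 0.000118), and 3.04 (adjusted p = 0.0255) with all 48 libraries. It lay below the CPM minimum and was not called. CYP11B2 had no count in all 38 libraries, and NR5A1, a further marker of the adrenal cortex, reached at most 1.20 CPM. Of the other reported targets, 18 of 19 were in the table and 11 were tested. PCK1, which encodes a gluconeogenic enzyme, was called, from 1.46 ± 0.39 to 6.18 ± 1.91 CPM under AII + EGF at 6 h (log2 change 2.09 ± 0.43, edgeR adjusted p = 0.000169), and lost its call with all 48 libraries. Of the 11 tested, edgeR called 1 under AII + EGF at 6 h, against 6.45% of all genes called higher and 5.53% lower. The median of the list was -0.01 at 6 h. At 24 h edgeR called 0 of 11 under AII + EGF, against 2.89% of all genes in either direction, and DESeq2 called 1. An unadjusted p under 0.05 was found for 4 of 11, against 32.1% of all genes.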

How the data were processed

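Paired-end reads of poly(A) RNA from 48 libraries were aligned by the authors to hg38 (HISAT2 2.1.0) and summarised per Ensembl gene (featureCounts), and the table they deposited holds raw counts. Whether counting used strand, and how multiply mapped reads were handled, is not given in the sources used here, so genes that overlap or are antisense to others are uncertain. Groups came from the labels, and replicate numbers follow the order of deposition. The members and gene lists were chosen with earlier results of these data known.

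Counts of 38 libraries were fitted with edgeR 4.0.16 (R 4.3.3): filterByExpr, TMM scaling and 1 quasi-likelihood model of the 8 groups, no covariate, with Benjamini-Hochberg adjustment over 19626 genes in each comparison. The steps were tested on simulated data. No column held counts outside the samples. Levels are TMM-scaled CPM. SE of log2 changes were derived from the F statistic. Per-kilobase levels used the union of exons in a GENCODE annotation, which can be longer than the transcripts made. Promoter sequences and positions came from RefSeq (GRCh38.p14).

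Besides the members, the text names the 3 genes most correlated with each, from each list at most 4 genes called under AII + EGF at 6 h and 3 at 24 h by absolute change, and RXRA and RXRB. Outside this rule it names CREB1, MEF2D and the genes marked as named after their values were seen. Alternatives were all 48, 46 or 40 libraries, DESeq2 1.42.0, RLE factors, no filter, the filter of the study, only the groups compared, title runs as a block, an adjusted p of 0.05, no fold or CPM minimum, and leaving out each library. The comparison of EGF with AII at 6 h, the values within runs and the linear excess without single libraries were added after seeing the data. SD and SE cover the spread between libraries, and the coefficients of variation given for counts cover counting only.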

Additional observations from a re-analysis of the deposited data

Results flagged for a closer look

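The response to AII + EGF differed between the times for each NR4A gene by a test of that difference: the log2 change at 24 h minus that at 6 h was -1.62 for NR4A1, -0.95 for NR4A2 and -2.09 for NR4A3 (edgeR adjusted p = 3.71e-09, 0.000503 and 4.83e-08). In each of the 9 alternative fits the difference kept its sign and stayed past the threshold, at -1.61 to -1.21 for NR4A1, -0.94 to -0.81 for NR4A2 and -2.08 to -1.81 for NR4A3. Among the 38 libraries used, none stood apart from its group in NR4A level by Dixon's test. It covered 21 sets of 1 gene in 1 group of 4 to 6 libraries, where chance gives about 1 in 20. The libraries left out, some of them for expression against their labels, were not in this test, nor was EGF 6 h with its 3 libraries.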

How the results depend on the processing

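Of 456 tested NR4A results under 9 alternative fits, 434 kept their direction and their side of the threshold. Most of them had not passed in the main fit and were unlikely to change side, so this count says little about those that had passed. The AII + EGF rise at 6 h against control kept both for all 3 genes under every one of the 9 fits. The cause of the following changes was not tested. With all 48 libraries these log2 changes no longer passed: NR4A1 under AII 6 h (0.71), NR4A2 under AII + EGF 6 h against EGF (0.56) and against AII (0.46), NR4A1 against AII (0.61) and NR4A1 in control 24 h against 6 h (0.45). There, 3 values near 0 turned sign: NR4A1 under AII 24 h (-0.030), NR4A2 under AII + EGF 24 h against EGF (0.032) and the NR4A1 interaction at 24 h (0.0066). With 40 libraries, the doubted labels kept, NR4A3 under AII 6 h (0.97), NR4A2 against EGF (0.69) and AII (0.52), and NR4A1 in control (0.57) no longer passed. With 46 libraries, the near-identical pairs kept, NR4A1 under AII 6 h (0.57) and in control (0.43) no longer passed, NR4A3 under EGF 6 h did (0.66), and NR4A1 under AII 24 h (-0.025) and NR4A2 under AII + EGF 24 h against EGF (0.022) turned sign, the latter also with DESeq2 (0.00082). NR4A3 under AII 6 h no longer passed without a filter (0.89), with only the groups compared (0.87) or with title runs as a block (0.78), nor did NR4A2 under AII + EGF 6 h against AII without a filter (0.59). Members called under AII 6 h were 0 with 48 or 46 libraries and 2 without a CPM minimum, and under AII + EGF 6 h against AII 1 with 48. In control across times 1 was called without a filter, with the filter of the study, with only the groups compared or without a fold minimum, and for the AII response across times 1 at an adjusted p of 0.05. The interaction at 6 h, which passed in no fit, was 0.27, 0.15 and 0.16 for NR4A1, NR4A2 and NR4A3 with 48 libraries. The linear excess at 6 h was 6.06, 0.883 and 2.09 CPM for NR4A1, NR4A2 and NR4A3 with 48 libraries, and 7.18 and 2.92 CPM for NR4A1 and NR4A3 with 40.

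Leaving out single libraries gave log2 changes of 0.80 to 1.01 for NR4A3 under AII 6 h, where 5 of 9 libraries ended the passing p (AII replicates 2 and 4, control replicates 3, 4 and 6), 0.49 to 0.70 for NR4A2 under AII + EGF 6 h against AII, and 0.69 to 0.90 against EGF. Values around 0 ran from -0.045 to 0.11 for NR4A1 under AII 24 h, -0.028 to 0.11 and -0.078 to 0.073 for NR4A2 under AII + EGF 24 h against control and EGF, -0.035 to 0.081 for NR4A2 in control across times and -0.037 to 0.11 under EGF 24 h, and -0.17 to 0.028 and -0.051 to 0.17 for NR4A3 under AII + EGF 24 h and AII 24 h. Members called in control across times ran from 0 to 1. No paired analysis was possible because the labels carry no replicate numbers that pair libraries. The title runs used above as a block come from the order of titles and are no stated pairing. They lie within 1 time, so they gave no value for control across times.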
